A study of Mus musculus with 12 samples.

Results

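Lyve1, Stab1, Stab2, Clec4g, Pecam1, Kdr, Cdh5, Tek, Eng and Flt4 are genes by which liver sinusoidal endothelial cells are usually recognised. These 10 genes were picked by name out of 52636 gene identifiers in liver RNA-sequencing counts, after the Ensembl identifiers were matched to mouse symbols. Their levels were followed in 4 groups of C57BL/6 mice aged 12 weeks, with 3 libraries in each group. The wt_normal group had wild-type p53 and a normal diet, and the ko_normal group had a p53 knockout and the same diet. The wt_HFD and ko_HFD groups had the corresponding genotypes on HFD, a high-fat diet. The labels do not give the kind of knockout or the cells that carry it, the length of the diet, or whether the 3 libraries of a group came from separate animals. The p-values therefore cover only the differences among these libraries, and part of that spread may be technical.

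Sinusoids are the capillaries of the liver, and their endothelial cells form a fenestrated lining without a continuous basement membrane. These cells take up waste molecules from the blood through scavenger receptors and send growth signals to the neighbouring hepatocytes. They share the junction proteins and the receptors for vascular growth factors with endothelium elsewhere. In RNA from whole liver, fewer endothelial cells and less of a transcript in each endothelial cell cannot be told apart.

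Total counts ran from 15465187 to 20492567 per library, and the 10 endothelial genes together took 0.0222% to 0.0599% of them. Levels are given as CPM, the depth-scaled read count of edgeR with TMM factors. Trp53, the gene encoding p53, lay between 14.5 and 16.3 CPM in wt_normal libraries and between 0.273 and 1.62 CPM in ko_normal libraries. On HFD it lay between 8.54 and 24.5 CPM in wt and between 0.701 and 0.752 CPM in ko libraries. Each library therefore matched its labelled genotype. A set of 3 libraries stood apart in their muscle or mitochondrial counts. Skeletal muscle genes took 1.12% of counts in wt_normal replicate 2 and at most 0.00137% in any other library. The share of mitochondrially encoded protein genes was raised in ko_HFD replicate 2 (9.98%) and ko_normal replicate 1 (14.2%), beside 4.01% to 7.03% in the rest. For calls named below that were lost without these 3 libraries, the adjusted p without them is given.

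All 10 genes had reads in all 12 libraries, from 18 counts for Lyve1 in ko_normal replicate 1 to 2749 counts for Stab1 in the same library. None of the other 15 sinusoidal genes followed here, such as Oit3, Dnase1l3 and Gpr182, was at 0 in a library. The labelled tissue thus carried its sinusoidal markers in each group. Per kilobase of exon, wt_normal libraries had most Clec4g, at 30.9 ± 3.99 CPM per kb (mean ± SD, n = 3, as for all levels below). Eng followed at 26.4 ± 0.632, Stab1 at 11.7 ± 1.26 and Stab2 at 6.47 ± 0.835 CPM per kb. Each of Clec4g, Eng and Stab1 lay above the next gene in the order without overlap. Cdh5, Lyve1, Pecam1, Kdr and Flt4 came next, from 5.93 to 3.22 CPM per kb, with neighbours that overlapped. Tek was the lowest at 1.85 ± 0.224 CPM per kb, below Flt4 without overlap. In the other groups Eng came first, at 21.1 ± 3.68 CPM per kb in ko_normal, 26.1 ± 2.91 in wt_HFD and 21.2 ± 5.14 in ko_HFD, and its values overlapped those of Clec4g. Lyve1 was last in ko_normal, at 0.819 ± 0.408 CPM per kb, where each neighbouring pair overlapped.

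Many endothelial promoters are read by transcription factors of the ETS family, and KLF factors respond to blood flow. The 250 bases before the transcription start are shown for 4 of the 10 genes. Clec4g and Kdr lay below each wt_normal library in every ko_normal library. Stab1 and Eng had the smallest log2 differences between these groups, although Eng too was lower in every ko_normal library. The sequences are from RefSeq on GRCm38.p6, on the strand of the gene. They cover chr8:3720652-3720901 (minus strand) for Clec4g and chr5:75978456-75978705 (minus strand) for Kdr. For Stab1 the window is chr14:31168642-31168891 (minus strand), and for Eng it is chr2:32646345-32646594 (plus strand). Capitals mark the ETS core CGGAAG, the variant of it that starts with A in place of C, and the KLF core CACCC, each on either strand.
Clec4g: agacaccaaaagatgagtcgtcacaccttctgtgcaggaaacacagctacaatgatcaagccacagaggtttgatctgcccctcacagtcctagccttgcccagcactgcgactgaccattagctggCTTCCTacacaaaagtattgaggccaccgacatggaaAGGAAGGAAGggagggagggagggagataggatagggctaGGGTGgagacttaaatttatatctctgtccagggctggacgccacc
Kdr: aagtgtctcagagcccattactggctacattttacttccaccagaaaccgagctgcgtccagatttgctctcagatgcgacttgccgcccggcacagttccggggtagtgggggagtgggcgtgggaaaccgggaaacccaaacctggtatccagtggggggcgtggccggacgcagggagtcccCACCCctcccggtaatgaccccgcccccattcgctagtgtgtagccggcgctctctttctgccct
Stab1: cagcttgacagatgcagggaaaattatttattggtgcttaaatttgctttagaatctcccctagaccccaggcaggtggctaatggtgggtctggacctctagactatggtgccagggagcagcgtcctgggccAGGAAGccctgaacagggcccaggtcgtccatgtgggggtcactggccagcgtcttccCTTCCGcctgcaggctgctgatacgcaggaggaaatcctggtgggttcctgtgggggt
Eng: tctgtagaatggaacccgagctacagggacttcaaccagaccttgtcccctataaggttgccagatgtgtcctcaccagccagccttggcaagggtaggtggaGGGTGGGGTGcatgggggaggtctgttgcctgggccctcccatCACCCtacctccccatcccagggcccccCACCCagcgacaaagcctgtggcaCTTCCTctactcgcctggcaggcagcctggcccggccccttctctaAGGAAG
RefSeq promoters matched 7 of the 10 genes, and Lyve1, Pecam1 and Cdh5 had no entry. An ETS core lay in 4 of the 7 windows (Eng, Clec4g, Stab2 and Stab1), against 39.2% of 32851 promoters. The KLF core lay in 5 of the 7 (Eng, Tek, Kdr, Clec4g and Flt4), against 52.0% of promoters. The SOX core ACAATG lay in the Clec4g window alone (10.7% of promoters), the GATA core AGATAA in none of the 7 (10% of promoters) and the p53 half-site in none (7.1%). Both strands were searched, and no ETS match overlapped a KLF match in these windows. ETS cores thus lay before Clec4g as well as before Stab1 and Eng, and these matches describe letters, not bound sites.

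Lyve1 (chr7:110850607-110863239 on GRCm38, as for the spans below), a receptor for hyaluronan, differed most between genotypes. Its level was 8.49, 19.7 and 12.7 CPM in wt_normal replicates 1 to 3 and 1.04, 3.29 and 2.83 CPM in ko_normal. On HFD it was 6.67, 9.03 and 17.4 CPM in wt libraries and 3.56, 3.57 and 8.02 CPM in ko libraries. The ko_normal libraries all lay below the lowest wt_normal library, while on HFD the third ko library lay above the lowest wt library. The ko level was 5.67-fold lower than wt on the normal diet (log2 change -2.50, SE 0.51, adjusted p = 0.0662) and 2.19-fold lower on HFD (-1.13, SE 0.48, adjusted p = 0.542). Neither passed the threshold of 0.05 in edgeR's quasi-likelihood test over 14433 genes. Averaged over both diets, Lyve1 fell 3.52-fold in ko livers (-1.82, SE 0.35, adjusted p = 0.0345). That call was lost when any 1 of 7 libraries was left out: wt_normal replicate 2 or 3, ko_normal replicate 1 or 3, wt_HFD replicate 3, or ko_HFD replicate 1 or 2. Over the alternatives tried its adjusted p ran from 3.1e-05 to 0.198, the latter without the 3 libraries in doubt (-1.35).

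Stab1 (chr14:31139013-31168641) and Stab2 (chr10:86841198-87008025) encode stabilin-1 and stabilin-2, the large scavenger receptors that clear modified proteins and matrix fragments. Stab1 had 106.0, 130.9 and 125.2 CPM in wt_normal and 152.8, 80.1 and 61.1 CPM in ko_normal. On HFD it had 103.9, 128.4 and 108.7 CPM in wt libraries and 79.0, 93.9 and 85.2 CPM in ko libraries. The first ko_normal library, which carried most mitochondrial counts, held the highest Stab1 level of all 12, and the other two were below each wt_normal library. On HFD all ko libraries lay below all wt libraries. The log2 change was -0.30 on the normal diet (SE 0.27, adjusted p = 0.638) and -0.40 on HFD (SE 0.27, adjusted p = 0.711). Stab2 had 50.5, 54.8 and 64.7 CPM in wt_normal and 61.8, 37.1 and 32.1 CPM in ko_normal, with the first ko library again high and the other two below the wt range. On HFD its values overlapped, at 29.9, 57.9 and 51.8 CPM in wt and 25.6, 38.1 and 40.7 CPM in ko libraries. The Stab2 change was -0.38 on the normal diet (SE 0.29) and -0.42 on HFD (SE 0.29), and neither passed the test.

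Clec4g (chr8:3707064-3720651) encodes LSECtin, a lectin of sinusoidal endothelium that binds glycans. Its level was 76.1, 66.4 and 86.0 CPM in wt_normal and 36.5, 50.02 and 31.1 CPM in ko_normal. The wt_HFD libraries had 43.0, 40.6 and 64.2 CPM and the ko_HFD libraries 28.6, 23.5 and 50.1 CPM. The wt_normal libraries were thus the 3 highest of the 12, and the genotypes overlapped on HFD. Clec4g was 1.94-fold lower in ko than in wt on the normal diet (-0.96, SE 0.28, adjusted p = 0.143) and 1.45-fold lower on HFD (-0.53, SE 0.28, adjusted p = 0.618).

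**Figure D1:**
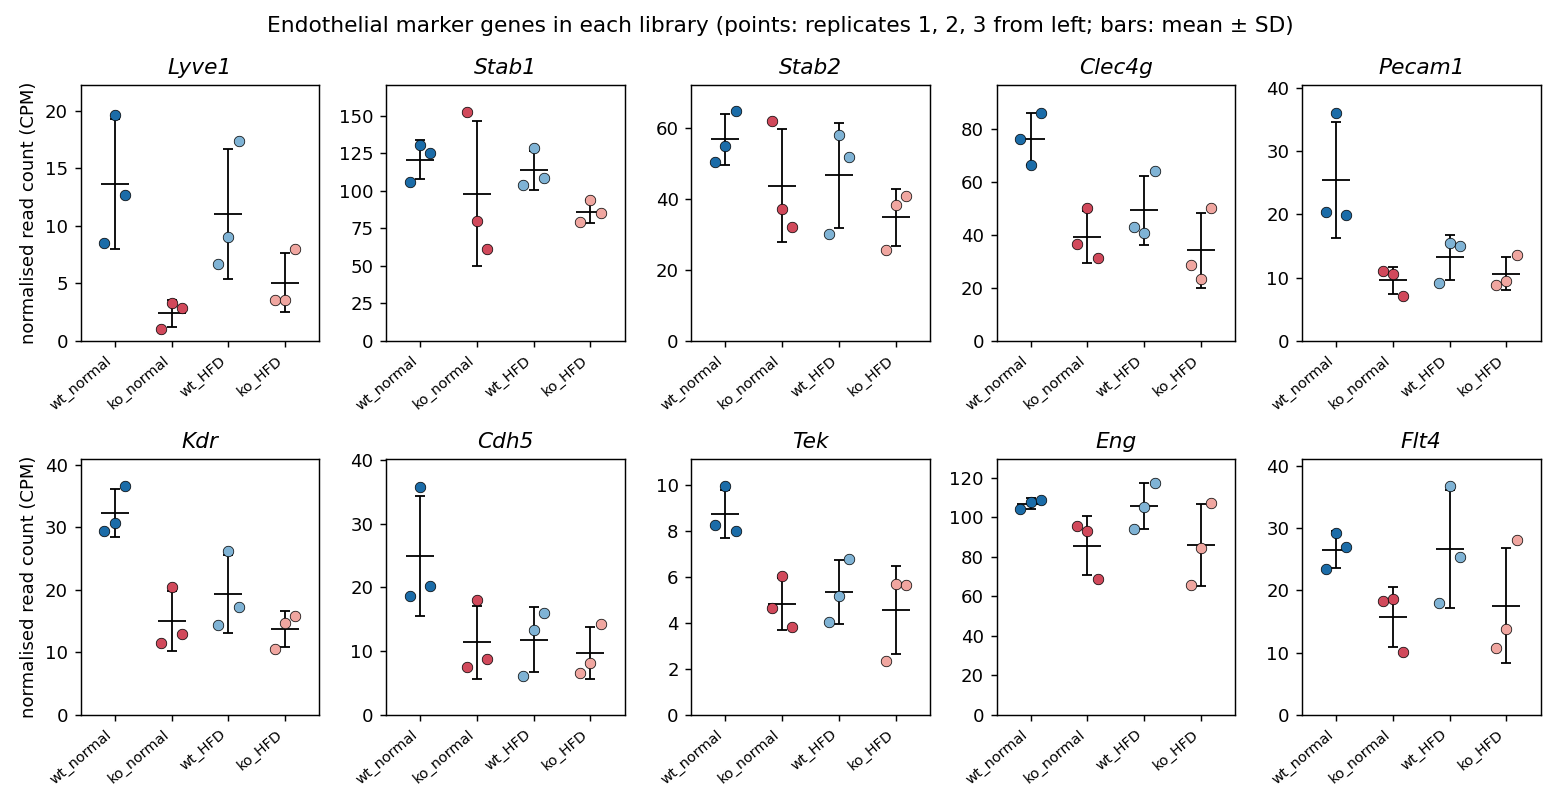
Normalised read count (CPM, vertical axis, each panel starting at 0) of the 10 endothelial genes in each library, in 4 groups of 3; points are replicates 1 to 3 from left, and bars give the mean ± SD. Lyve1, Clec4g, Pecam1 and Kdr have all ko_normal points below all wt_normal points, whereas the first ko_normal point is high for Stab1 (152.8 CPM) and Stab2 (61.8 CPM).

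Kdr (chr5:75932827-75978458) and Flt4 (chr11:49609263-49652739) encode VEGF receptors, the first responding to VEGF-A and the second to VEGF-C and VEGF-D. Kdr had 29.5, 30.6 and 36.6 CPM in wt_normal, and 11.5, 20.5 and 12.9 CPM in ko_normal. On HFD it had 14.4, 26.3 and 17.3 CPM in wt and 10.5, 14.7 and 15.9 CPM in ko libraries. As with Clec4g, the wt_normal libraries were the 3 highest, and the genotypes overlapped on HFD. Kdr was 2.15-fold lower in ko on the normal diet (-1.11, SE 0.27, adjusted p = 0.0993) and 1.41-fold lower on HFD (-0.50, SE 0.27, adjusted p = 0.621). Flt4 had 23.4, 29.3 and 26.9 CPM in wt_normal and 18.4, 18.6 and 10.1 CPM in ko_normal, which did not overlap. Its HFD values spread widely, at 17.9, 36.7 and 25.4 CPM in wt and 10.7, 13.8 and 28.1 CPM in ko libraries. Its log2 change was -0.76 on the normal diet (SE 0.36, adjusted p = 0.344) and -0.61 on HFD (SE 0.36, adjusted p = 0.657).

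Tek (chr4:94739289-94874976) encodes Tie2, the receptor for angiopoietins, and Eng (chr2:32646595-32682669) encodes endoglin, a coreceptor for BMP9 and TGF-beta. Tek had 8.25, 9.95 and 8.02 CPM in wt_normal against 4.64, 6.04 and 3.82 CPM in ko_normal, with no overlap (-0.85, SE 0.33, adjusted p = 0.238). On HFD it had 4.03, 5.16 and 6.80 CPM in wt and 2.34, 5.70 and 5.64 CPM in ko libraries, which overlapped (-0.23, SE 0.33). Eng was the steadiest of the 10 genes, with a highest level only 1.78-fold above its lowest. It had 104.0, 107.7 and 108.9 CPM in wt_normal and 95.4, 93.0 and 68.5 CPM in ko_normal, so the ko libraries lay below by a small margin. On HFD it had 93.9, 105.4 and 117.4 CPM in wt and 65.8, 84.3 and 107.4 CPM in ko libraries. The Eng change was -0.32 on the normal diet (SE 0.19, adjusted p = 0.465) and -0.30 on HFD (SE 0.20, adjusted p = 0.699), alike in size on both diets but below the threshold.

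Pecam1 (chr11:106654217-106750628) and Cdh5 (chr8:104101625-104144511) encode PECAM-1 and VE-cadherin, which hold endothelial cells together. Pecam1 had 20.4, 36.0 and 19.97 CPM in wt_normal and 11.1, 10.5 and 7.09 CPM in ko_normal. The wt_HFD libraries had 9.14, 15.6 and 15.1 CPM and the ko_HFD libraries 8.82, 9.44 and 13.7 CPM. Again wt_normal held the 3 highest values, the muscle-bearing second library most of all. Pecam1 was 2.66-fold lower in ko on the normal diet (-1.41, SE 0.30, adjusted p = 0.0740) and 1.25-fold lower on HFD (-0.32, SE 0.30, adjusted p = 0.789). With 1 library left out, its normal-diet change ran from -1.56 to -1.05. Cdh5 had 18.7, 35.8 and 20.3 CPM in wt_normal and 7.42, 17.97 and 8.72 CPM in ko_normal, the second ko library lying just under the lowest wt library. It had 6.07, 13.3 and 15.98 CPM in wt_HFD and 6.60, 8.06 and 14.3 CPM in ko_HFD, which overlapped. The Cdh5 change was -1.13 on the normal diet (SE 0.43, adjusted p = 0.235) and -0.29 on HFD (SE 0.43, adjusted p = 0.875). Cdh5 too was highest in the muscle-bearing library, and its normal-diet change ran from -1.62 to -0.75 with 1 library left out.

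On the normal diet, the question is whether ko livers differed from wt livers in these 10 genes. All 10 log2 changes were negative, against 52% of the 14433 genes tested, and their median was -0.91 beside -0.02 over all genes. In 8 of the 10 (all but Stab1 and Stab2) each ko library lay below each wt library, against 11.4% of genes. EdgeR called 0 of the 10 at an adjusted p under 0.05, as it called 0.208% of all genes in either direction. At an unadjusted p under 0.05 it picked 6 of the 10, all lower in ko, against 7.77% of genes. The Wald test of DESeq2 called 4 (Lyve1, Clec4g, Pecam1 and Kdr), and limma's voom called 0. That Wald test also called many more of all genes than edgeR did, so its count is not comparable with edgeR's share. Without wt_normal replicate 1, edgeR called Lyve1, and also more of all genes than in the main fit. The numbers over all genes are given below. Without wt_normal replicate 2 the groups did not overlap in 8 of the 10 genes (15.8% of all genes), without ko_normal replicate 1 in 10 of 10 (17.7%), and without both in 10 of 10 (23.3%).

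On HFD the same question gave smaller values. All 10 changes were again negative, against 51.1% of genes, with a median of -0.41 beside -0.01 over all genes. Only Stab1 had ko libraries that all lay below the wt libraries, against 6.85% of genes. EdgeR called 0 of the 10, beside 0.0693% of all genes, and picked 1 (Lyve1) at an unadjusted p under 0.05, against 4.35% of genes lower in ko. DESeq2 and voom called 0 as well. No gene of the 10 had separate groups in the same direction on both diets, which 1.62% of genes had.

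Averaged over both diets, 1 of the 10 genes passed the test. This was Lyve1, as given above, beside 0.374% of all genes that fell and 1.16% called in either direction. All 10 changes were negative, against 51.7% of genes, and their median was -0.70 beside -0.01 over all genes. An unadjusted p under 0.05 was reached by 8 of the 10, all lower in ko, against 9.66% of genes. Next to Lyve1 came Kdr (-0.80, SE 0.19, adjusted p = 0.0616), Pecam1 (-0.86, SE 0.21, adjusted p = 0.0665) and Clec4g (-0.74, SE 0.20, adjusted p = 0.0893). The smallest changes were those of Eng (-0.31, SE 0.14), Stab1 (-0.35, SE 0.19) and Stab2 (-0.40, SE 0.20). The count of called genes ran from 0 to 3 when 1 library was left out. It was 3 without wt_HFD replicate 1 (Lyve1, Pecam1 and Kdr), and 2 without ko_normal replicate 2 (Lyve1 and Kdr) or ko_HFD replicate 3 (Lyve1 and Clec4g). It was 0 without any 1 of the 7 libraries that decided Lyve1. The shares of all genes called in these fits are not given here, so the changes in count are not read as a result about the 10 genes.

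**Figure D2:**
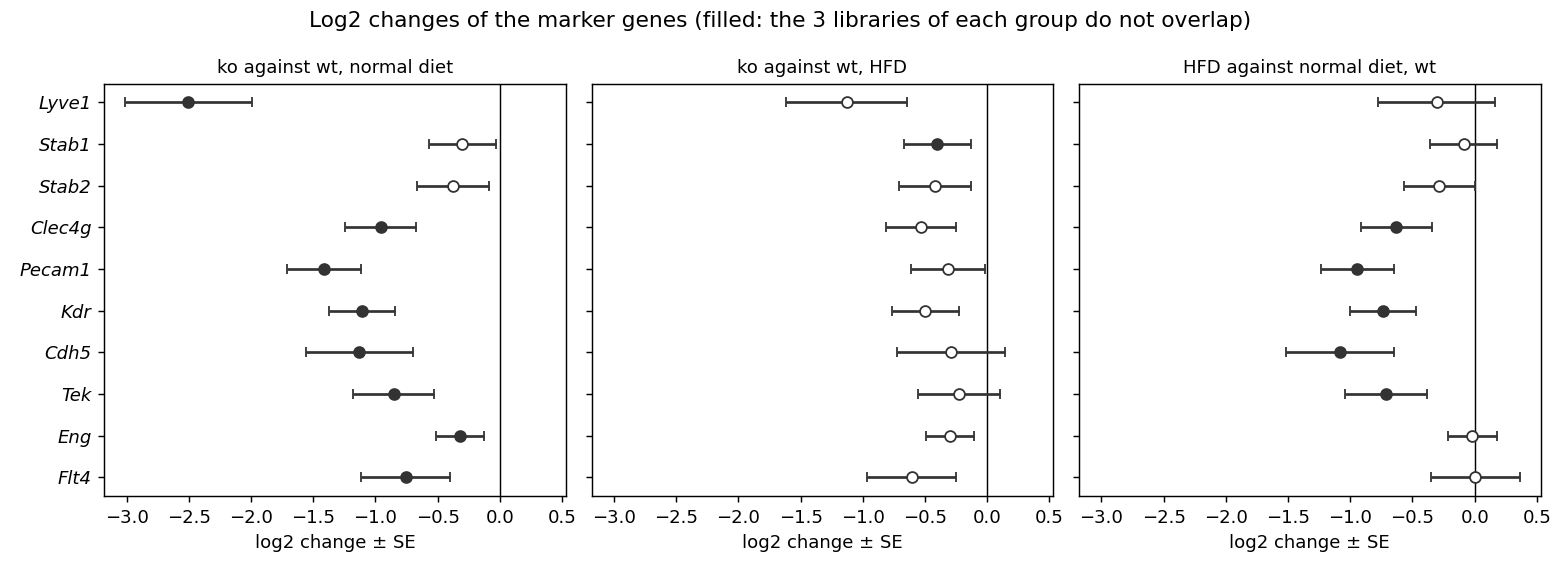
Fitted log2 change ± SE (horizontal axis) of the 10 endothelial genes for ko against wt on the normal diet, ko against wt on HFD, and HFD against the normal diet in wt; filled points are genes whose libraries do not overlap between the groups. All changes of the first 2 panels lie below 0, with Lyve1 farthest at -2.50 on the normal diet and -1.13 on HFD.

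High-fat feeding of wt mice was compared with the normal diet next, and this comparison uses the same wt_normal libraries as the genotype comparison above. In wt livers, 9 of the 10 changes were negative, against 52.8% of genes, with a median of -0.47 beside -0.03 over all genes. Each wt_HFD library lay below each wt_normal library for 5 genes, Clec4g, Pecam1, Kdr, Cdh5 and Tek, against 10.7% of genes. EdgeR called 0 of the 10, beside 0.693% of all genes, while 5 had an unadjusted p under 0.05, against 8.51% of genes lower on HFD. DESeq2 and voom called 0. The values by gene were -1.08 for Cdh5 (SE 0.43), -0.94 for Pecam1 (SE 0.29), -0.74 for Kdr (SE 0.27), -0.71 for Tek (SE 0.33) and -0.63 for Clec4g (SE 0.28), with adjusted p-values of 0.231, 0.147, 0.190, 0.291 and 0.283. Lyve1 (-0.30), Stab2 (-0.28), Stab1 (-0.09), Eng (-0.02) and Flt4 (0.01) had smaller values and groups that overlapped. The sign of Lyve1, Eng and Flt4 changed in some alternatives, so no direction is given for them.

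In ko livers the diets gave closer values, with a median change of -0.11 (-0.0046 over all genes) and 6 of 10 values negative, against 50.6% of genes. Lyve1 was the gene with separate groups, higher in each ko_HFD library than in each ko_normal library (2.10-fold, log2 change 1.07, SE 0.50, adjusted p = 0.868), against 5.45% of genes. EdgeR called 0 of the 10 and 0% of all genes, and 0 of the 10 had an unadjusted p under 0.05, which 5.63% of genes had. DESeq2 and voom also called 0. Averaged over genotypes, edgeR called 0 of the 10 for diet, beside 1.04% of all genes, and 1 had an unadjusted p under 0.05 (Kdr, lower on HFD as were 8.55% of genes). DESeq2 and voom called 0 there too. The median was -0.35 with 8 of 10 values negative, against 52.8% of genes, and the widest value was that of Cdh5 (-0.66, SE 0.31, adjusted p = 0.285).

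Whether the ko effect differed between diets was tested by the interaction term. The ko effect was less negative on HFD for 8 of the 10 genes and more negative for 2 (49.3% of all genes), with a median difference of 0.52 beside 0.01 over all genes. The sign turned in 4 of 21 alternatives for Stab1, 8 for Stab2, 5 for Eng and 3 for Flt4, so no direction is given for these 4. EdgeR called 0 of the 10 and 0% of all genes, and DESeq2 and voom called 0 of the 10. Pecam1 was the gene with an unadjusted p under 0.05, which 5.02% of all genes had (difference 1.09, SE 0.42, adjusted p = 0.914). Lyve1 had a difference of 1.37 (SE 0.69, adjusted p = 0.981), Cdh5 of 0.84 (SE 0.61), Tek of 0.63 (SE 0.46) and Kdr of 0.61 (SE 0.38). The smaller median on HFD is therefore not shown to differ from that on the normal diet. The wt_normal libraries enter both the genotype effect on the normal diet and the diet effect in wt, so these are not independent values.

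The 10 genes also varied together from library to library. Each gene's log2 CPM was standardised over the 12 libraries, and the mean over the 10 genes was taken as their joint level. The joint level was highest in wt_normal replicates 2, 3 and 1, at 1.25, 1.04 and 0.70 SD units. It was lowest in ko_HFD replicate 1 (-1.36) and ko_normal replicate 3 (-1.21). The wt_HFD libraries lay at -0.51, 0.52 and 0.57, and ko_HFD replicate 3 at 0.11, above the lowest wt_HFD library. All 45 pairs of the 10 genes correlated positively over the 12 libraries, with Pearson's r from 0.244 (Lyve1 and Stab1) to 0.925 (Eng and Flt4) and a median of 0.701. Within groups, after each group's mean was removed, 41 of the 45 pairs were positive, with a median r of 0.563. These correlations are a description of libraries that share groups and scaling. Stab1 followed the joint level least (r = 0.665) and Pecam1 most (r = 0.930), each being part of the mean it is set against.

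**Figure D3:**
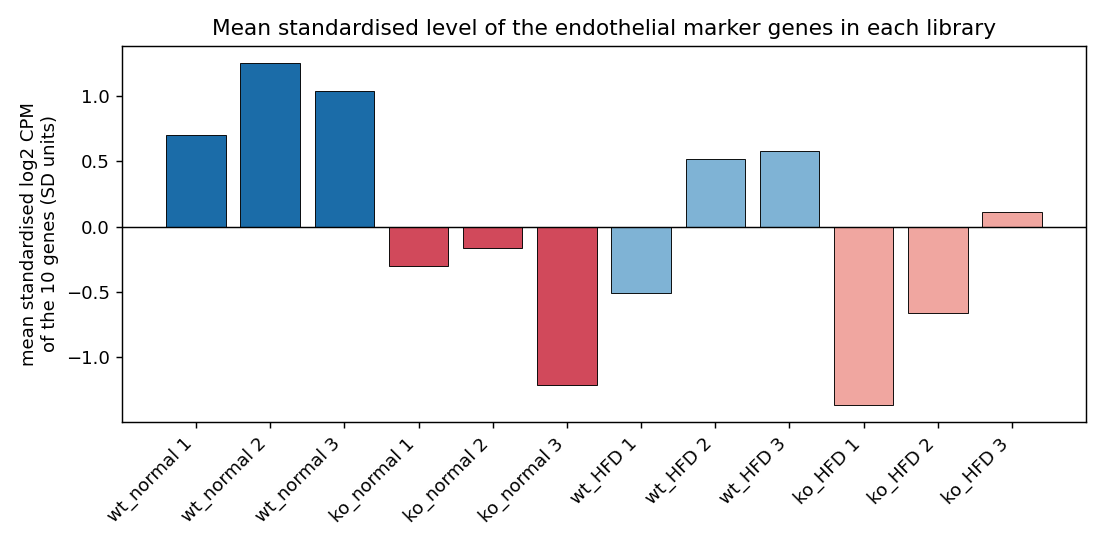
Joint level of the 10 endothelial genes in each library (vertical axis, mean of standardised log2 CPM in SD units), coloured by group. The 3 wt_normal bars are the tallest, from 0.70 to 1.25, and the lowest bars are ko_HFD replicate 1 and ko_normal replicate 3.

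Among the 14423 other genes tested, the 10 whose levels followed the joint level most closely over the 12 libraries were Emcn (r = 0.973), Cd300lg (0.959), Chst7 (0.948), Vwf (0.941), Cavin2 (0.931), Mmrn2 (0.927), Ptprb (0.922), Kctd10 (0.918), Sparc (0.917) and Cyyr1 (0.913). Of these, 6 are in an endothelial list used here, and Chst7, Cavin2, Kctd10 and Sparc are in none. Emcn encodes endomucin, an endothelial surface sialomucin, and Vwf the clotting protein von Willebrand factor. Ptprb encodes the vascular phosphatase that acts on Tie2 and VE-cadherin. Without the muscle-bearing library, 7 of these 10 were again among the 10 closest, now with Bmp2 (0.922), F8 (0.916) and Jam2 (0.909). Bmp2 and F8, which encode an iron-regulating signal and clotting factor VIII, are made by sinusoidal endothelium.

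Further endothelial genes were followed by list. Of 15 other sinusoidal genes, all 15 were lower in ko_normal than in wt_normal, with a median log2 change of -0.88, and 10 had groups that did not overlap. Over all genes tested, 52% were negative and 11.4% had separate groups with ko lower. Of 21 pan-endothelial genes, 19 were negative with a median of -0.76 and 14 separate groups. Of 10 tested genes of large vessels and capillarisation, 10 were negative with a median of -0.66 and 3 separate groups. None was called by edgeR in that comparison. On HFD the medians were -0.27, -0.37 and -0.60 in the same order, with 3, 3 and 1 genes separate and lower (6.85% of all genes) and 1 pan-endothelial gene separate and higher. For HFD against the normal diet in wt livers they were -0.69, -0.67 and -0.84.

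The most abundant of the other sinusoidal genes were Aqp1, Ehd3, Fcgr2b and Cd36. Aqp1, the water channel, had 106 ± 52.9 CPM in wt_normal, 37.7 ± 16.3 in ko_normal, 66.8 ± 25.1 in wt_HFD and 34.7 ± 6.82 in ko_HFD, with ko below wt in each library on both diets. Its adjusted p was 0.109 on the normal diet and 0.0515 averaged over diets. Ehd3, an endocytic membrane protein, had 54.5 ± 7.27 CPM in wt_normal and 27.1 ± 4.0 in ko_normal (-1.01, adjusted p = 0.0713), but 30.0 ± 4.51 and 28.8 ± 8.24 on HFD. Fcgr2b, an inhibitory Fc receptor, had 44.5 ± 8.07 and 30.2 ± 10.2 CPM on the normal diet, and the fatty acid receptor gene Cd36 had 46.8 ± 43.4 and 26.5 ± 11.8, both with overlap. Of the pan-endothelial genes, Ece1 (165 ± 14.4 CPM in wt_normal, 175 ± 3.61 in ko_normal) and S1pr1 (25.9 ± 6.04 and 20.1 ± 9.54) overlapped. Ptprb had 36.3 ± 1.87 and 21.5 ± 4.44 CPM without overlap (-0.75, adjusted p = 0.197).

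Averaged over diets, 3 further endothelial genes were called lower in ko, as were 0.374% of all genes. They were 1 of the 15 other sinusoidal genes (Plxnc1), 1 of the 21 pan-endothelial genes (Egfl7) and 1 of 5 flow response genes (Thbd). No gene of the remaining endothelial and receptor pathway lists was called lower. Egfl7, a secreted endothelial protein, fell by 0.81 on the log2 scale (SE 0.16, adjusted p = 0.0388). Its levels were 55.1 ± 12.3 CPM in wt_normal, 29.1 ± 8.13 in ko_normal, 54.4 ± 13.4 in wt_HFD and 33.5 ± 0.939 in ko_HFD, with separate genotypes on both diets. Plxnc1, a semaphorin receptor, fell by 1.01 (SE 0.22, adjusted p = 0.0447), from 14.6 ± 3.71 to 5.71 ± 1.93 CPM on the normal diet and from 8.11 ± 2.28 to 5.11 ± 1.32 CPM on HFD. Thbd, which encodes the anticoagulant thrombomodulin, fell by 1.89 (SE 0.37, adjusted p = 0.0371). It had 6.21 ± 1.94 CPM in wt_normal, 0.875 ± 0.477 in ko_normal, 3.99 ± 2.49 in wt_HFD and 2.04 ± 0.520 in ko_HFD. The Egfl7 call was lost without any 1 of 9 libraries (all but wt_normal replicate 1, ko_normal replicate 1 and wt_HFD replicate 1), and Plxnc1 without any 1 of 10 (all but ko_normal replicate 2 and wt_HFD replicate 1). Thbd was lost without any 1 of 9 (all but wt_normal replicate 1, ko_normal replicate 2 and wt_HFD replicate 1). The Plxnc1 call was also lost with the replicate block (-1.004, adjusted p = 0.0631) and in limma voom (adjusted p = 0.0524), and the Thbd call in voom (adjusted p = 0.0723). Without the 3 libraries in doubt none was called: the adjusted p was then 0.116 for Egfl7 (-0.81), 0.200 for Plxnc1 (-0.91) and 0.242 for Thbd (-1.53), the highest over the alternatives.

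Thbd is in the list of flow response genes, with Klf2, Klf4, Nos3 and Piezo1. All 5 were lower in ko_normal with separate groups (11.4% of all genes) and a median of -1.85. Klf2, the transcription factor at the head of that response, had 26.4 ± 6.71 CPM in wt_normal and 7.32 ± 0.788 in ko_normal (-1.85, adjusted p = 0.0685). On HFD it had 15.8 ± 8.32 and 13.3 ± 5.03 CPM, with overlap. Nos3, the endothelial nitric oxide synthase, had 8.20 ± 1.57 and 4.18 ± 2.17 CPM on the normal diet (-0.98, adjusted p = 0.359). The 7 tested angiocrine factors, by which sinusoidal cells act on hepatocytes, were all negative (52% of all genes) with a median of -1.19, and 5 had separate groups. Among them Bmp2 had 17.4 ± 4.31 and 9.45 ± 1.94 CPM (-0.88, adjusted p = 0.187), and the Wnt amplifier Rspo3 had 4.58 ± 0.827 and 1.95 ± 0.858 CPM (-1.22, adjusted p = 0.205). Wnt2 overlapped, at 4.15 ± 1.18 and 2.57 ± 0.824 CPM. On HFD the medians were -0.52 for the flow genes and -0.28 for the angiocrine factors, with no separate groups.

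The pathways of the receptors were less uniform. Among 9 tested VEGF ligands, receptors and coreceptors, which include Kdr and Flt4, 7 were negative in ko_normal (52% of all genes) with a median of -0.47. For ko against wt on HFD, 8 of the 9 were negative (51.1% of all genes), with a median of -0.21 and no separate groups. The ligand gene Vegfa had 83.1 ± 9.50 CPM in wt_normal and 133 ± 34.2 in ko_normal, higher in each ko library (0.67, adjusted p = 0.157). Flt1, the decoy receptor of VEGF-A, had 13.4 ± 7.93 and 4.803 ± 1.73 CPM (-1.48, adjusted p = 0.134). Nrp1, a coreceptor of Kdr, was the one gene of that list that rose with diet. It had 47.9 ± 5.56 CPM in wt_normal and 163 ± 80.7 in wt_HFD (1.77, SE 0.35, adjusted p = 0.0466), and 70.7 ± 18.4 in ko_normal and 141 ± 48.0 in ko_HFD. Averaged over genotypes the rise was 1.38 (SE 0.25, adjusted p = 0.0255). The wt call was lost in 13 of 22 alternatives and held with 1 library left out only without ko_normal replicate 1, wt_HFD replicate 3, or ko_HFD replicate 1 or 3. The averaged call was lost in 7 of 21, namely without any 1 of the wt_normal libraries, ko_normal replicate 2 or 3, or ko_HFD replicate 1, and without the 3 libraries in doubt. The largest adjusted p was 0.166 for the wt call and 0.107 for the averaged one, both without the 3 libraries in doubt.

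Of the angiopoietin and Tie genes, 4 were tested and all 4 were lower in each ko_normal library (11.4% of all genes), with a median of -0.81. These are Angpt2, Tek, Tie1 and Ptprb, of which Tek is among the 10 endothelial genes. Tie1 and Ptprb were already counted as pan-endothelial genes, so this list adds little of its own. Tie1 had 22.1 ± 5.27 and 13.1 ± 3.74 CPM (-0.76, adjusted p = 0.157). The BMP9 and endoglin pathway had a median of -0.19 over 19 genes, 13 of them negative. There Id2, a target gene, had 89.0 ± 23.3 and 120 ± 26.7 CPM with overlap, and the receptor gene Bmpr2 had 22.3 ± 0.679 and 17.6 ± 1.43 CPM without overlap (-0.34, adjusted p = 0.344). In the Notch pathway 9 of 12 were negative with a median of -0.43. Notch1 had 8.79 ± 0.279 and 7.53 ± 1.02 CPM, and the target gene Hes1 had 7.10 ± 1.29 and 17.0 ± 6.22 CPM, higher in each ko library (1.26, adjusted p = 0.303). Among 10 tested adhesion and activation genes the median was -0.17, and the catenin gene Ctnnd1 had 27.5 ± 3.62 and 28.7 ± 1.69 CPM. No gene of these 4 lists was called in the comparison. For ko against wt on HFD, the medians of the 4 lists in the same order were -0.28, 0.02, 0.12 and -0.21. Negative values there numbered 3 of 4, 9 of 19, 4 of 12 and 5 of 10 (51.1% of all genes). Separate and lower were 0, 1, 1 and 0 genes (6.85% of all genes).

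Markers of other liver cells were set beside the endothelial genes on the same scale. Summed over the 10 endothelial genes, levels ran from 445 to 521 CPM in wt_normal and from 238 to 401 CPM in ko_normal libraries. On HFD they ran from 329 to 440 CPM in wt and from 241 to 369 CPM in ko libraries. Stellate cell and fibroblast genes moved with them on the normal diet, where 14 of 15 were negative (52% of all genes) with a median of -1.04, and 8 had separate groups (11.4% of all genes). Their summed level was 445 to 1044 CPM in wt_normal (the highest in the muscle-bearing library), 271 to 328 CPM in ko_normal, and on HFD 312 to 621 CPM in wt and 314 to 412 CPM in ko libraries. Rgs5, a pericyte gene, fell by 1.13 averaged over diets (SE 0.22, adjusted p = 0.0347), a call lost without any 1 of 8 libraries (all but wt_normal replicate 1, ko_normal replicate 2, wt_HFD replicate 1 and ko_HFD replicate 3), and lost without the 3 libraries in doubt (-0.87, adjusted p = 0.207). Of 13 Kupffer cell genes 11 were negative, with a median of -0.15 and 1 separate, and their summed level was 424 to 639 CPM in wt_normal and 308 to 642 in ko_normal. Clec4f, a defining Kupffer cell lectin, had 150 ± 30.2 and 134 ± 37.6 CPM.

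Of 11 tested hepatocyte genes, 8 were positive and 3 negative for ko against wt on the normal diet (median 0.14), and 9 were positive and 2 negative on HFD (median 0.41). Their sum, which weighs most the abundant genes such as Alb, was 46383 to 62132 CPM in wt and 81517 to 82562 CPM in ko libraries on the normal diet. On HFD it was 49159 to 57008 CPM in wt and 77368 to 86194 CPM in ko libraries, again without overlap between genotypes. Alb, the albumin gene, rose by 0.86 in ko averaged over diets (SE 0.18, adjusted p = 0.0391), a call lost without any 1 of 9 libraries (all but wt_normal replicate 1, wt_HFD replicate 1 and ko_HFD replicate 1), and also with the replicate block (0.88, adjusted p = 0.0514) and without the 3 libraries in doubt (adjusted p = 0.145). On HFD averaged over genotypes the metabolic genes Pck1 (-1.14, adjusted p = 0.0305), Cps1 (-1.07, adjusted p = 0.0413) and Ass1 (-1.07, adjusted p = 0.0231) fell. Those diet calls were lost in 8, 11 and 6 of 21 alternatives, and in 7, 10 and 5 of the 12 that left out 1 library. Without the 3 libraries in doubt the adjusted p was 0.126 for Pck1, 0.176 for Cps1 and 0.107 for Ass1. Ass1 also fell in wt livers on HFD (-1.58, adjusted p = 0.0264), a call lost in 7 of 22, among them that without the 3 libraries (adjusted p = 0.0871). Lymphatic endothelium also makes Lyve1 and Flt4, and 4 of its other marker genes were tested. For ko against wt on the normal diet, 3 of the 4 were negative (52% of all genes), with a median of -1.75. Separate groups with ko lower were found for 2 of them (11.4% of all genes). On HFD 2 of the 4 were negative, with a median of -0.17 and no separate groups. The most abundant, Prox1, is also a hepatocyte gene and had 53.1 ± 15.1 and 65.3 ± 6.57 CPM on the normal diet. Mmrn1 had 4.47 ± 3.22 and 0.168 ± 0.1199 CPM (-4.71, adjusted p = 0.107). Blood genes summed to 411 to 877 CPM in wt_normal and 165 to 549 in ko_normal, and B cell genes to 5.42 to 147 and 7.03 to 12.8. Both highest sums, 877 and 147 CPM, were in wt_normal replicate 2, the muscle-bearing library, and the other wt_normal libraries had B cell sums of 8.99 and 5.42 CPM. The part of any of these levels in the endothelial values was not tested.

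**Figure D4:**
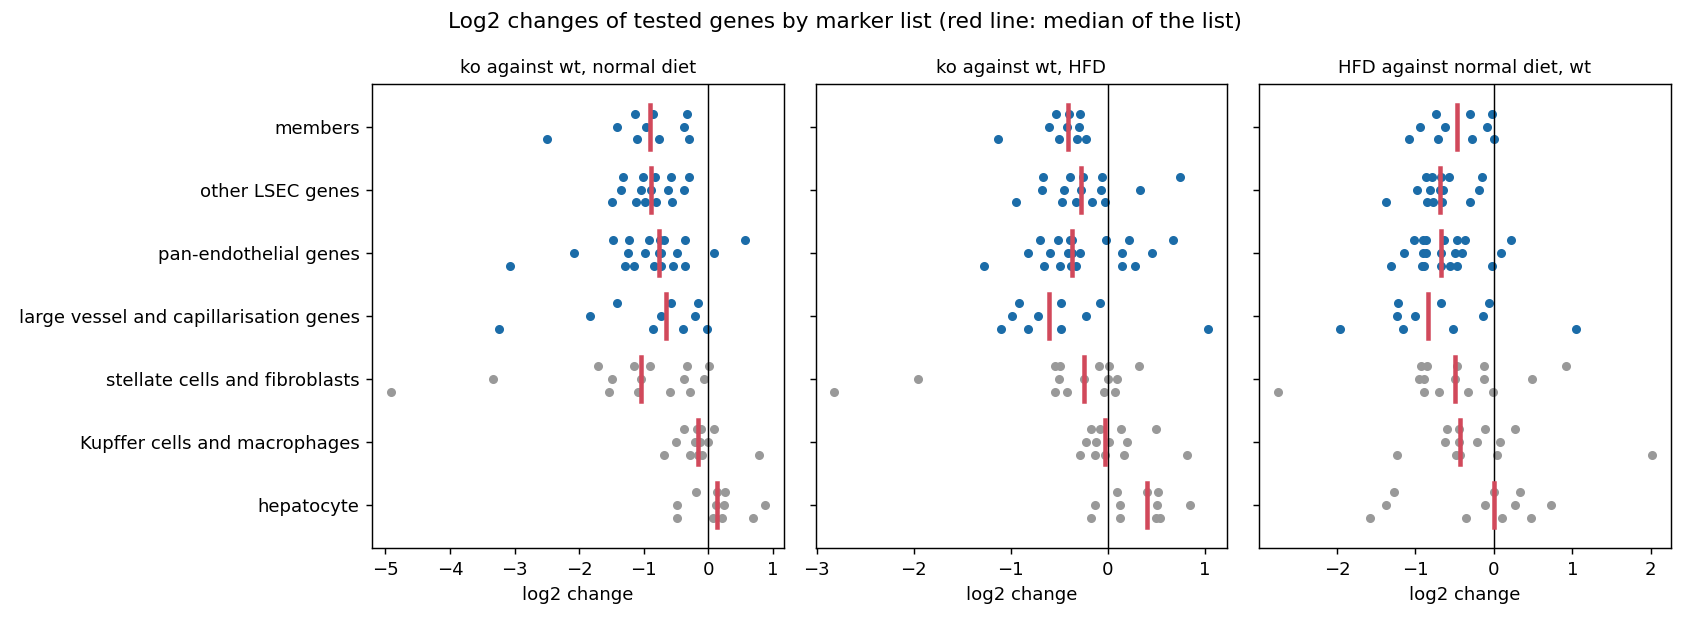
Log2 change (horizontal axis) of each tested gene in 7 marker lists, for ko against wt on the normal diet, ko against wt on HFD, and HFD against the normal diet in wt; points are genes, blue for endothelial lists and grey for other cell types, and red lines are medians. On the normal diet the medians of the 4 endothelial lists lie from -0.91 to -0.66 and that of stellate cells at -1.04, whereas Kupffer cells (-0.15) and hepatocytes (0.14) lie near 0.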

How the data were processed

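Liver RNA was sequenced in 12 libraries of 4 groups, whose genotype, diet and replicate number came from the labels. The authors deposited a table of raw counts by gene identifier for every library, and these counts were used unchanged. Per the submitters' processing notes, CASAVA 1.8 and Bowtie 0.12.2 were used, and the notes name the builds mm8 and mm9. Not given in the sources used here are the counting tool, the annotation and the strand setting, so reads of overlapping or antisense genes (Nt5dc2 at Stab1, Fpgs at Eng, antisense genes at Stab2, Clec4g and Cdh5) cannot be told apart. Of 52636 identifiers, 52403 matched a symbol in GENCODE M21 on GRCm38, which gave gene spans and exon lengths; these are not the authors' coordinates.

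EdgeR 4.0.16 (R 4.3.3) was run on the counts: filterByExpr left 14433 genes, with TMM scaling and quasi-likelihood tests in 1 fit of the 4 groups (residual degrees of freedom 8, prior 4.66). The threshold for a call was 0.05 after Benjamini-Hochberg adjustment across the genes tested. All tests were two-sided, and SE is derived from the log2 change and the F statistic. There were 7 comparisons, some of which share groups. The test was tried on simulated counts with 200 changed genes, and the share recovered is not reported here. Replicates of a group differed by a chi-square of 39.5 to 199 per degree of freedom, far above counting error. In ko_HFD, replicate 1 differed by 199 and 167 from replicates 2 and 3, which differed by 58.9 from each other. That replicate 1 is not among the 3 libraries in doubt, so the fits without them keep it. Alternatives were a fit without the uninvolved groups, a block for replicate number, no filter, at least 1 CPM in 3 libraries, DESeq2 size factors, library totals only, upper quartile scaling, the Wald test of DESeq2 1.42.0, voom of limma 3.58.1 and each library left out. Leaving out the 3 libraries in doubt, and the counts of separate groups without single libraries, were added after the values were seen.

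The 10 genes and 21 further lists of pathway and cell type genes were chosen with earlier results of these data known. Some genes are in several lists, so the lists are not independent. Of the 10 genes, Kdr and Flt4 are also in the VEGF list, Tek in the angiopoietin and Tie list, and Eng in the BMP9 list. Tie1, Ptprb, Nos3, Icam2, Bmp2 and Bmp6 are likewise shared between further lists. The text names all 10 genes and, from other lists, called genes and otherwise up to 4 of the most abundant, plus the 10 genes most alike. Flt1 falls outside this rule and, like the ratios to Stab1, was chosen after its values were seen. Promoters are RefSeq's on GRCm38.p6, and no protein sequences were used here.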

Additional observations from a re-analysis of the deposited data

How the results depend on the processing

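The median log2 change of the 10 genes moved by less than 0.41 under all alternatives in all 7 comparisons. That margin is the within-group SD of the median gene's log2 CPM, not the error of a difference between groups. It is wide beside the main medians for ko against wt on HFD (-0.41), for diet averaged over genotypes (-0.35) and for diet in ko (-0.11). Staying within it therefore does not show that these were stable. The diet median in ko changed sign, up to 0.14 with 1 library left out and 0.03 in the other alternatives. With 1 library left out it ran from -1.10 to -0.74 for ko against wt on the normal diet, -0.61 to -0.28 on HFD, and -0.88 to -0.56 averaged over diets. For HFD against the normal diet it ran from -0.73 to -0.29 in wt, -0.25 to 0.14 in ko and -0.43 to -0.22 averaged, and for the interaction from 0.23 to 0.72.

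The number of called genes among the 10 depended on the fit in 2 comparisons and was 0 in every alternative of the other 5. For ko against wt on the normal diet (0 called), it was 1 with the replicate block (Lyve1), 4 without a filter and 4 with DESeq2's Wald test, and 0 to 1 with 1 library left out. Averaged over diets (1 called), it was 2 with the replicate block (Lyve1 and Kdr), 4 without a filter, 4 with the Wald test, 0 without the 3 libraries in doubt, and 0 to 3 with 1 library left out. The cause was not tested. All genes called on the normal diet numbered 30, against 45 with the block, 648 without a filter, 529 with the Wald test and 84 without wt_normal replicate 1; averaged over diets they numbered 168, against 157, 644 and 860. Over 18 pairs of same-numbered libraries across groups, the correlation of deviations ran from -0.21 to 0.33, and 4 exceeded 0.1. The median was 0.02, beside -0.015 for pairs with different numbers. In 7 of 12 libraries the closest library of another group had the same number. These values do not settle whether the numbers pair libraries. The main fit did not use the numbers, and the replicate block was kept as an alternative.

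Signs turned for 4 small values. With 1 library left out, Tek for ko against wt on HFD ran from -0.42 to 0.086 (the latter without ko_HFD replicate 1). For HFD against the normal diet in wt, Lyve1 ran from -0.80 to 0.077 (without wt_normal replicate 2), Eng from -0.10 to 0.060 and Flt4 from -0.26 to 0.23. Without the 3 libraries in doubt, Lyve1 was 0.069 and Eng 0.00137 there. Flt4 was -0.024 with the replicate block, -0.19 with library totals only, -0.023 with upper quartile scaling and -0.053 with voom. The 23 single-gene values of the diet effect in ko, the averaged diet effect and the interaction that are under 0.6 in size were followed in 492 alternative values, of which 59 changed sign (16 of the 23 genes and comparisons) and 0 were called.

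Depth was lowest for Lyve1, at 18 counts in ko_normal replicate 1. With 3 libraries a group, differences of 2.15-fold (Kdr) and 2.66-fold (Pecam1) on the normal diet did not pass the threshold, and values that did not pass are not shown to be equal.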

Other observations

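Ratios of counts within a library do not depend on its scaling. Stab1 was taken as the denominator after the values were seen. The ratio of Lyve1 to Stab1 counts was 0.080 to 0.150 in wt_normal and 0.0068 to 0.046 in ko_normal, and that of Pecam1 was 0.160 to 0.275 and 0.073 to 0.131, both without overlap. The ratios of the other 7 endothelial genes overlapped between genotypes on the normal diet, among them Stab2 (0.419 to 0.517 and 0.405 to 0.526) and Kdr (0.234 to 0.293 and 0.075 to 0.255). On HFD the ratios of all 9 genes overlapped: Lyve1 had 0.064 to 0.160 in wt and 0.038 to 0.094 in ko libraries. Stab1 was at its highest in ko_normal replicate 1, which lowers each ratio in that library. The share of all genes whose ratio to Stab1 separates the groups was not computed, so these ratios are a description only.

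Among other cell types, neutrophil genes had median log2 changes of 1.70 in wt and 2.30 in ko livers for HFD against the normal diet, each over 3 tested genes. In ko_HFD the summed level was 31.9 CPM in replicate 1 but 1.15 and 2.26 CPM in the others, against 0.290 to 3.29 CPM in ko_normal, so the ko value rests on 1 library. S100a9, a calcium-binding protein of neutrophils, had 1.56 ± 0.529 CPM in wt_normal and 7.43 ± 3.003 in wt_HFD (SD, n = 3), but 1.12 ± 0.867 in ko_normal and 6.33 ± 9.54 in ko_HFD. None of these passed edgeR's test (adjusted p = 0.294 in wt and 0.868 in ko). Cholangiocyte genes had a median of 0.29 for ko against wt on the normal diet and -1.004 on HFD. The medians were -0.24 and 1.09 for T and NK cell genes and 0.02 and 0.20 for cell division genes. Each of these lists had 5 tested genes, and no gene was called. T and NK cell genes summed to only 2.35 to 7.02 CPM per library and cell division genes to 2.77 to 7.42 CPM, so their medians rest on low counts.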
